A study of Mus musculus with 10 samples.

Results

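Embryonic stem cells of the mouse whose Elongin A carries arginine in place of lysine K754 (EloA_K754R, 2 libraries) were compared with cells that carry wild-type Elongin A (EloA_WT, 2 libraries). The comparison takes 4 of the 10 samples of the study, and a methionine substitution at the same lysine (EloA_K754M, 2 libraries) enters the fit and is set beside it where the mutants differ. The remaining samples are wild-type CJ7 cells and Eed null cells, present as 1 pooled column each. According to the labels, both substitutions were made by editing, and cells of every group grew with LIF and the inhibitors PD0325901 and CHIR99021 on a fibroblast feeder layer that was removed by plating, or on feeder-free dishes, since the protocols name both. Bromouridine was added at 2 mM for 10 min, and an antibody then pulled down the labelled RNA for sequencing. The label for the parental line reads CJ7 for both mutants and CCE28 for EloA_WT, while the growth protocol names CJ7 throughout, so if the label is right the substitution and the line cannot be told apart. Whether an edited line is 1 clone, and whether the libraries came from separate cultures, is not given in the sources used here, so p-values here reflect library-to-library spread, which may be technical.

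Elongin A is the transcriptionally active subunit of Elongin, which also holds the small proteins Elongin B and Elongin C and keeps RNA polymerase II from pausing while it elongates a transcript. With Cul5 the same subunits form a ubiquitin ligase that acts on stalled polymerase. The study's title names methylation of Elongin A by Polycomb repressive complex 2 (PRC2), the complex of Eed, Suz12 and Ezh2 that methylates histone H3, and the K754R comparison asks what changes in ongoing transcription when that lysine becomes arginine. The authors' values are intronic RPKM, reads in the introns of a gene scaled for intron length and library depth, so they follow newly made, unspliced RNA.

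Of the 24901 genes in the table, 15161 had a mean of at least 0.1 RPKM over the 6 single libraries and were tested. The reads that the values rest on could be recovered, and the depth they give was 16206563 and 21725639 reads in EloA_K754R, 14732797 and 15100382 reads in EloA_K754M, and 19292550 and 16291320 reads in EloA_WT. Changes are differences of log2(RPKM + 0.1), which understate those of low genes, and a gene is called, or said to have risen or fallen, at a limma adjusted p under 0.05. The replicate 2 libraries had more signal in low genes, with a lower quartile over the whole table of 0.0498 RPKM in EloA_K754R and 0.0406 RPKM in EloA_WT, against 0.0153 and 0.0138 RPKM in the replicate 1 libraries. Pou5f1, which encodes the stem cell factor Oct4, stood at 15.0 and 19.8 RPKM in EloA_K754R and 19.2 and 24.7 RPKM in EloA_WT, and Nanog at 23.3 and 24.2 against 21.5 and 24 RPKM. Of 8 stem cell markers, 7 were in the table and none was at 0 in any library. The summed level of 12 fibroblast markers, which feeder cells would bring, was 22.3 and 20.3 RPKM in EloA_K754R and 15.2 and 14.7 RPKM in EloA_WT. In EloA_K754M it was 19.6 and 17.8 RPKM, and in pooled CJ7_WT 20.7 RPKM. From EloA_WT to EloA_K754R all 12 had a positive change, with a median of 0.47, and 1 of them, Tnc, was called. Twist1 was at 0.116 and 0.0865 RPKM in EloA_K754R and 0.292 and 0 RPKM in EloA_WT. Its change of 0.02 was positive only through this 0. The other 11 were above 0 in each library. In bulk RNA, fewer cells of a type and less RNA per cell cannot be told apart. The part of feeder cells in the results that follow was not tested.

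Elongin A itself is encoded by Tceb3 (ENSMUSG00000028668), on chromosome 4. Its introns gave 1.12 and 1.30 RPKM in EloA_K754R and 1.83 and 2.03 RPKM in EloA_WT. Both mutant libraries lay below both wild-type libraries, and the difference of −0.63 (SE 0.18) missed the threshold (adjusted p = 0.104). Intronic reads say nothing of a single substituted lysine, so they do not check the edit. Tceb2, which encodes Elongin B, fell to 1.49 and 1.69 RPKM in EloA_K754R, against 4.27 and 3.23 RPKM in EloA_WT (log2 change −1.18, SE 0.21, adjusted p = 0.0475). Tceb1, which encodes Elongin C, stood at 5.41 and 7.24 RPKM in EloA_K754R and 6.32 and 7.08 RPKM in EloA_WT, and the groups overlapped. Among 12 genes of the complex and its ligase partners, Tceb2 was the 1 called, against 3.48% called among all tested genes. This call was lost with equal library medians (adjusted p = 0.06). Cul2, the scaffold of another Elongin ligase, changed by −0.16 (adjusted p = 0.513) and Vhl, its substrate receptor, by −0.43 (adjusted p = 0.25), neither of them called.

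The neighbours of Tceb3 moved with it. Of the 20 tested genes nearest to it, 10 on each side, 19 had a negative change, and their median was −0.63, while in EloA_K754M against EloA_WT the same 20 had a median of −0.12. Along chromosome 4 the change was not even. When the 1019 placed genes were put in order, the split at which a mean on each side fitted the changes best fell after 517 genes, between Gm12868 and Zfp691. Before it the median change was −0.09 and 60.2% of genes were negative, and 2 genes were called higher and 5 lower. In the 502 genes after it the median was −0.59 and 91.0% were negative. Of these 502, 71 were called lower and none higher, against 2.79% lower and 0.686% higher among all tested genes. Tceb3 is gene 757 in this order, inside the stretch that was low. The split was chosen on the values, so these figures describe the pattern and are no test of it.

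Relative to EloA_WT, both EloA_K754R libraries showed the step on chromosome 4 and neither EloA_K754M library did. Relative to the mean of EloA_WT and to all genes, the stretch after it stood at −0.43 and −0.47 in EloA_K754R, 0.01 and −0.01 in EloA_K754M, and −0.01 and 0.01 in EloA_WT. In pooled CJ7_WT it stood at 0.10. The EloA_WT values, here and for the other chromosomes, mirror each other because their own mean was subtracted. They cannot show a step or shift that both EloA_WT libraries share. The 25 genes just before the split had a median change of −0.18 and the 25 just after it −0.56. When each of 10 equal groups of genes along every chromosome was set to the same median in all libraries, the change of Tceb3 became 0.015.

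**Figure D1:**
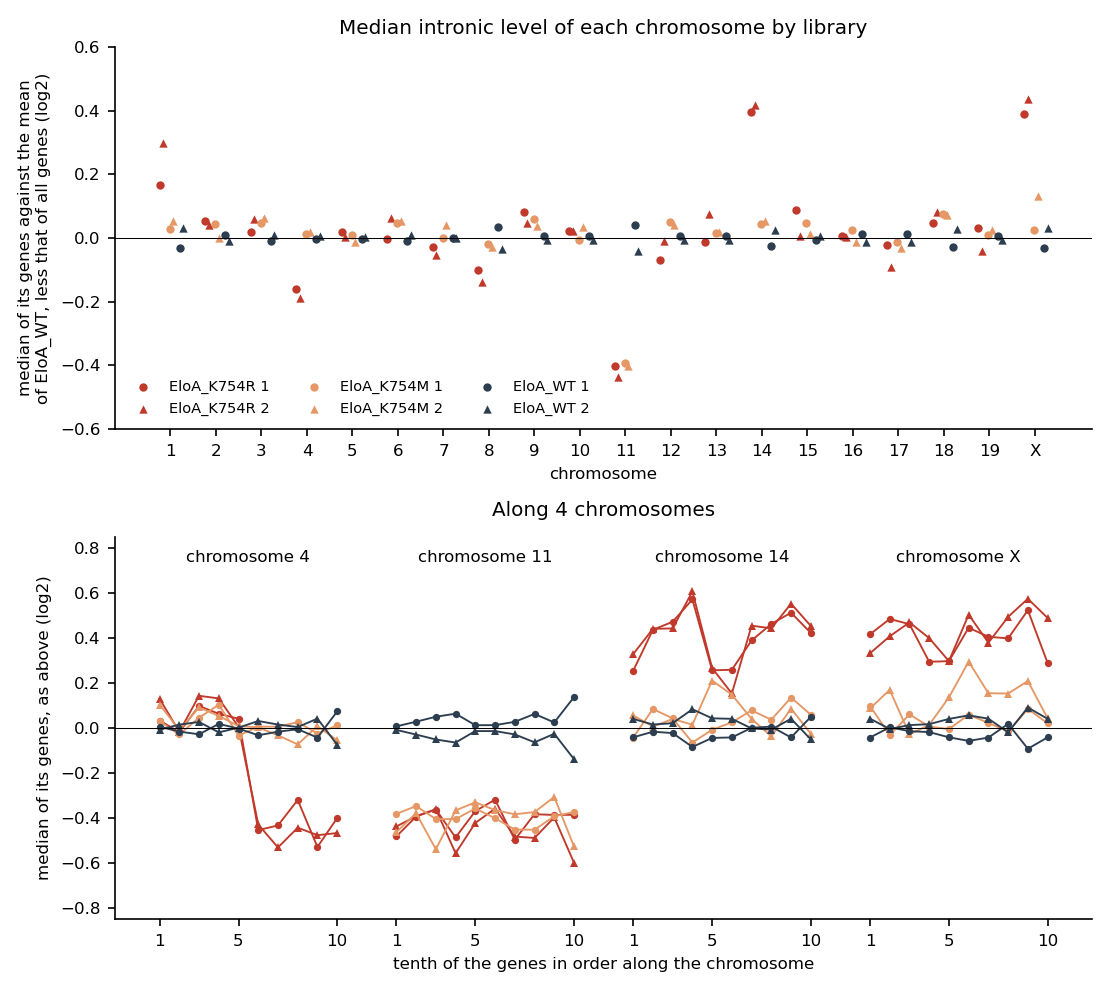
Upper panel, the median over each chromosome's tested genes of log2(RPKM + 0.1) less the EloA_WT mean, after subtraction of the median over all genes, for every library (circles replicate 1, triangles replicate 2). Lower panel, the same in 10 equal groups of genes in order along chromosomes 4, 11, 14 and X: the EloA_K754R libraries step down in the middle of chromosome 4, along which the EloA_K754M libraries stay between −0.07 and 0.11, while chromosome 11 is low along its length in both mutants.

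Other chromosomes shifted as a whole. Among all tested genes, 2.79% were called lower and 0.686% higher. Chromosome 11 had a median change of −0.56 over 1322 genes, of which 152 were called lower and 1 higher. Relative to all genes it stood at −0.40 and −0.44 in EloA_K754R and 0.04 and −0.04 in EloA_WT. In each of 10 groups along its length it stood between −0.60 and −0.32 in the EloA_K754R libraries. EloA_K754M was as low, at −0.39 and −0.40, and pooled CJ7_WT stood at −0.25. Chromosomes 14 and X went the other way in EloA_K754R, and pooled CJ7_WT stood at 0.19 and 0.26 on them. Chromosome 14 stood at 0.39 and 0.42 in EloA_K754R, 0.04 and 0.05 in EloA_K754M and −0.02 and 0.02 in EloA_WT, and 16 of its 528 genes were called higher and 2 lower. Chromosome X stood at 0.39 and 0.44 in EloA_K754R, 0.02 and 0.13 in EloA_K754M and −0.03 and 0.03 in EloA_WT, and 35 of its 530 genes were called higher and 1 lower. Smaller shifts were seen for chromosome 1, at 0.16 and 0.30 in EloA_K754R, and chromosome 8, at −0.10 and −0.14, while the other 14 numbered chromosomes stayed between −0.09 and 0.09. The number of copies of each chromosome was not analysed here, and its part in these shifts was not tested.

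Over all chromosomes, limma called 527 of 15161 genes (3.48%), 104 higher in EloA_K754R (0.686%) and 423 lower (2.79%). An unadjusted p under 0.05 was reached by 3807 genes. The median change over all tested genes was −0.14, so values of single genes are to be read against it. Each called gene had both EloA_K754R values beyond both EloA_WT values, as had 18.0% of tested genes on the higher side and 38.8% on the lower side. The surplus of falls changed with the scaling. When the libraries were given equal medians, which moved the median change to 0.05, 164 genes were called higher and 160 lower, while 103 were called higher and 171 lower with the length trend removed. Chromosome 11, chromosome 14, chromosome X and the low stretch of chromosome 4 held 52 of the calls higher and 226 of the calls lower. Outside them, 52 of 12279 genes were called higher (0.423%) and 197 lower (1.60%). With each library centred by chromosome, 40 genes were called higher and 58 lower. With each library centred within 10 equal groups of genes along each chromosome, 21 were called higher and 42 lower, and 60 of these were among the 527.

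The calls also rest on the spread that the 6 libraries share, since 2 libraries a side estimate it poorly. A fit of the EloA_K754R and EloA_WT libraries alone called 1 gene, which was not among the 527, with 3756 at an unadjusted p under 0.05. Without EloA_K754R replicate 1 or 2 the fit called 3 and 8 genes, without EloA_WT replicate 1 or 2 it called 6 and 9, and without either EloA_K754M library, which holds no value of the comparison itself, it called 1. Of the 527 called genes, 134 are unnamed gene models and 26 had under 20 recovered reads in the higher group.

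**Figure D2:**
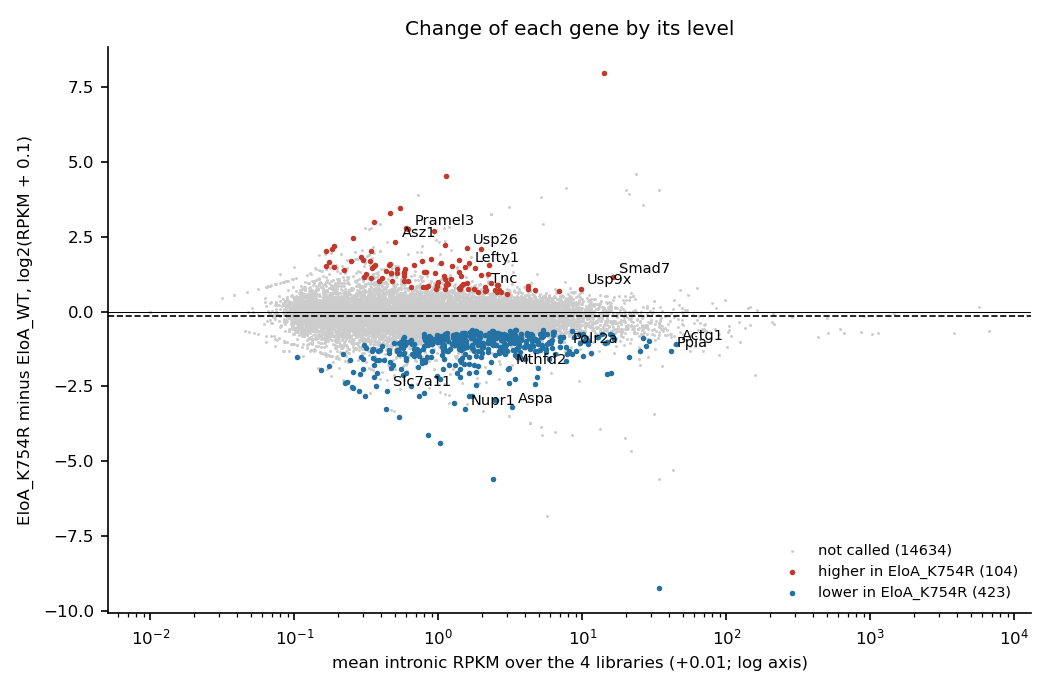
Each point is a tested gene, with its mean intronic RPKM over the 4 EloA_K754R and EloA_WT libraries on a log axis against its log2 change. The 104 genes called higher are red and the 423 called lower blue, and the dashed line marks the median change of −0.14.

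Many of the steepest falls were in genes of the amino acid and stress response that the transcription factor ATF4 controls. When amino acids run short or unfolded protein builds up, kinases such as Perk and Gcn2 phosphorylate eIF2-alpha, bulk translation slows and ATF4 is made. ATF4 then switches on regulators that shape the response, enzymes that make serine, one-carbon units, proline and asparagine, transporters that bring amino acids in, and the tRNA synthetases that charge them. Over 6 lists of such genes, 42 of 113 tested members fell and none rose, against 2.79% lower among all tested genes, and the median change was −0.58. Both EloA_K754R values lay below both EloA_WT values for 77 of the 113, as for 38.8% of all tested genes. These lists were drawn up with results of these libraries known, so their direction is no independent evidence.

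Among the regulators, 7 of 15 tested genes fell and the list's median was −1.0. Nupr1, a small chromatin protein made under stress, stood at 0.424 and 0.0702 RPKM in EloA_K754R and 2.89 and 2.67 RPKM in EloA_WT, a change of −3.27 (SE 0.52, adjusted p = 0.0421) that rests on 11 reads in EloA_K754R and 130 in EloA_WT. Trib3, a pseudokinase that ATF4 induces and that feeds back on it, stood at 0.481 and 0.236 RPKM in EloA_K754R and 2.66 and 3.47 RPKM in EloA_WT (−2.83, SE 0.41, adjusted p = 0.0368). In both genes the mutant libraries were far below the wild-type ones, though the mutant libraries differed between themselves. Sesn2, a leucine sensor upstream of mTORC1, fell by 1.31 to 2.84 and 2.49 RPKM in EloA_K754R, against 6.87 and 6.55 RPKM in EloA_WT, and lies in the low stretch of chromosome 4. The transcription factor genes Atf5, Cebpg, Atf3 and Ddit3, the last encoding CHOP, fell by between 1.0 and 1.25. Atf4 itself had 8.55 and 6.92 RPKM in EloA_K754R and 17.1 and 12.1 RPKM in EloA_WT, without overlap, and its change of −0.89 missed the threshold (adjusted p = 0.0839). The kinase genes Eif2ak1, Eif2ak2, Eif2ak3 and Eif2ak4 had changes between −0.19 and 0.18 and none was called.

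Of 12 effectors, 6 fell, and the median was −1.27. Chac1, which breaks down glutathione, stood at 0.203 and 0.182 RPKM in EloA_K754R and 2.01 and 2.67 RPKM in EloA_WT, 0.193 ± 0.0151 against 2.34 ± 0.463 RPKM (SD, n = 2 each). Its change was −3.05 (SE 0.22, adjusted p = 0.0127). Slc7a11, the cystine importer that feeds glutathione synthesis, stood at 0.0192 and 0.0761 RPKM in EloA_K754R and 0.699 and 0.918 RPKM in EloA_WT (−2.64, adjusted p = 0.0364). Stc2, a secreted glycoprotein on chromosome 11, fell by 2.95, Gdf15, a stress hormone, by 2.24, the lipoprotein receptor gene Vldlr by 1.89 and the bZIP gene Jdp2 by 1.82. The remaining 6 effectors lay between −0.72 and 0.39 and were not called.

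Serine and folate metabolism followed, with 6 of 20 genes lower and a median of −0.54. Mthfd2, the mitochondrial folate dehydrogenase, stood at 1.21 and 1.29 RPKM in EloA_K754R and 4.58 and 5.28 RPKM in EloA_WT (−1.89, SE 0.12, adjusted p = 0.0115), with the libraries of each group close together. The 3 steps of serine synthesis were all called: Phgdh, the first, fell by 1.75, Psat1, the second, by 1.46, and Psph, the last, by 1.01. Shmt2, which makes glycine from serine in mitochondria, fell by 1.21. Cytosolic Mthfd1 and Mtr had changes of −0.19 and −0.13 and were not called.

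Among 21 other enzymes, 5 fell while the median was −0.15, close to that of all genes, so the list was split between a few strong falls and many genes that did not pass. Pck2, the mitochondrial PEP carboxykinase, stood at 0.592 and 0.412 RPKM in EloA_K754R and 3.23 and 3.04 RPKM in EloA_WT (−2.44, SE 0.18, adjusted p = 0.0127), although it lies on chromosome 14, whose genes were higher as a whole. Gpt2, an alanine transaminase, fell by 2.24. Pycr1 and Aldh18a1, consecutive enzymes of proline synthesis, fell by 2.04 and 1.67, and Cth, which makes cysteine from cystathionine, by 1.35. Asns, the asparagine synthetase, was high in each library, with 20.0 and 25.4 RPKM in EloA_K754R and 35.8 and 40.1 RPKM in EloA_WT, and its change of −0.75 missed the threshold (adjusted p = 0.0941).

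Of 22 amino acid transporters, 8 fell. Slc1a4, a carrier of serine and alanine on chromosome 11, had the smallest adjusted p of the transporters, at 0.355 and 0.301 RPKM in EloA_K754R and 2.93 and 2.89 RPKM in EloA_WT (−2.82, SE 0.16, adjusted p = 0.00931). The glycine transporter gene Slc6a9 fell by 1.77 and the glutamine transporter gene Slc38a2 by 1.41. Slc7a5 and Slc3a2, the light and heavy chains of the leucine exchanger, fell by 1.32 and 1.04. Slc38a7, Slc1a5 and Slc7a1 fell by between 1.02 and 1.1.

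Among 23 genes of cytosolic tRNA synthetases and their scaffold, 10 fell, and the median was −0.63. Nars, for asparagine, stood at 4.21 and 4.97 RPKM in EloA_K754R and 11.2 and 13.6 RPKM in EloA_WT (−1.42, SE 0.15, adjusted p = 0.0234). Yars fell by 1.30, Aars by 1.17 and Gars by 1.07, with Yars in the low stretch of chromosome 4. Eprs, the synthetase for glutamate and proline, had 4.61 and 5.38 RPKM in EloA_K754R and 4.52 and 5.5 RPKM in EloA_WT, and overlapped.

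The 42 falls depend on the scaling. With equal library medians 23 of them were called, with each library centred by chromosome 12, and with centring within 10 groups along each chromosome 9, which were Chac1, Jdp2, Psat1, Mthfd2, Pycr1, Gpt2, Cth, Pck2 and Slc1a4. The median of the 113 stayed negative under these 3 scalings, at −0.39, −0.40 and −0.46. Of the 42, 4 lie on chromosome 11 and 3 in the low stretch of chromosome 4. EloA_K754M shared the direction, with a median of −0.51 against EloA_WT, the same wild-type libraries. There 11 of the 113 were called lower, against the 42 in EloA_K754R. Between EloA_K754R and EloA_K754M none of the 113 was called, near the 0.29% called among all tested genes. In pooled CJ7_WT, which has no replicate column, the 113 genes had a median of −0.49 against EloA_WT, where all tested genes had −0.20. EloA_K754R had a median of −0.30 over the 113 against pooled CJ7_WT, where all tested genes had 0.08. Chac1 stood at 1.83 RPKM in pooled CJ7_WT and Slc1a4 at 0.894 RPKM.

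**Figure D3:**
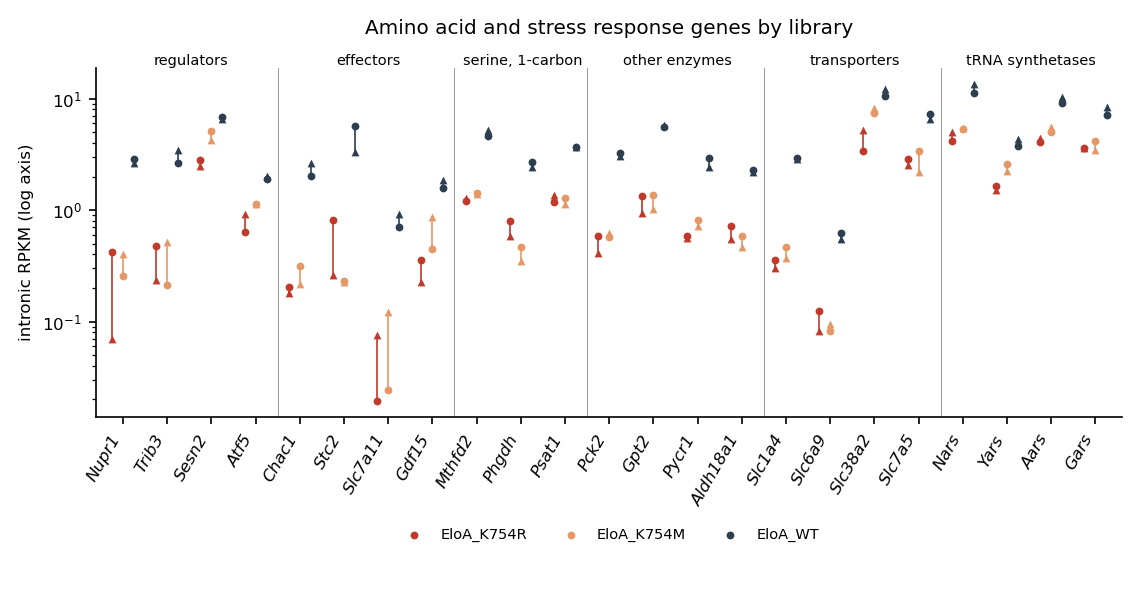
Intronic RPKM on a log axis of 3 or 4 called members with large changes from each of 6 amino acid and stress lists, with EloA_K754R left, EloA_K754M in the middle and EloA_WT right for each gene (circle replicate 1, triangle replicate 2). Both EloA_K754R values lie below both EloA_WT values in each gene shown, and the EloA_K754M values lie near those of EloA_K754R for most.

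Promoters of these genes were read from RefSeq (GRCm38.p6, 250 bases before to 50 after each start) and searched on both strands for TGATGNAAT, the composite site that ATF4 binds together with a C/EBP partner. It stood in 0.965% of all 32851 promoters, in 0.471% of the 12311 promoters of tested genes and in 6 of the 354 promoters of genes called lower (1.69%). Counted by gene, it stood in 0.557% of the 9700 tested genes with a promoter and 2.15% of the 279 called lower. Among called list members with a promoter in the table, it stood in 1 of 7 regulators, 1 of 4 other enzymes and 2 of 5 synthetases. It stood in none of 6 effectors, 5 serine and folate genes and 6 transporters, so most called members lacked it in this window. Of 10 synthetases not called, 1 held it, and no uncalled member of the other lists did. The cyclic AMP response element TGACGTCA was searched for as well. It stood in 3.04% of promoters of tested genes and 1.69% of those called lower. No called member of these lists held TGACGTCA, and 1 of 8 uncalled regulators did. CACGTG and GCGGGAA were searched for the germline lists and are not reported here. The 4 called members that held TGATGNAAT are shown because they place this site in genes whose introns fell. The site is in capitals, with up to 25 bases before it and 26 after it, on the strand of the gene.
Nupr1: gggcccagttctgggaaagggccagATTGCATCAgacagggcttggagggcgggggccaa
Pycr1: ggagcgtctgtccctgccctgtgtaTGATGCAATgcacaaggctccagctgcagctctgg
Aars: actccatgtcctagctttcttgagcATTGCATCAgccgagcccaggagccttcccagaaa
Gars: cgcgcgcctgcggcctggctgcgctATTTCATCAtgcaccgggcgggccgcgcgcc
The promoters lie at chr7:126625421-126625720 on the minus strand for Nupr1, chr11:120643699-120643998 on the minus strand for Pycr1, chr8:111033592-111033891 on the plus strand for Aars and chr6:55037751-55038050 on the plus strand for Gars. The site begins 111, 103, 113 and 31 bases before the start in that order, and reads as TGATGNAAT forward in Pycr1 and reversed in the other three. A match describes the letters, and binding was not measured here.

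The unfolded protein response of the endoplasmic reticulum shares ATF4 but has its own arms, Atf6 and Xbp1. Of 22 chaperones and response genes, 1 fell, near the 2.79% lower among all tested genes. Herpud1, which helps to degrade misfolded membrane proteins, stood at 0.811 and 1.03 RPKM in EloA_K754R and 4.94 and 5.5 RPKM in EloA_WT (−2.39, SE 0.19, adjusted p = 0.0127). Xbp1, on chromosome 11, had a change of −1.23 (adjusted p = 0.0591). Hspa5, the main chaperone of this compartment, had 14.6 and 24.8 RPKM in EloA_K754R and 17.0 and 39.1 RPKM in EloA_WT, and the groups overlapped. Of 20 heat shock genes, 1 fell, also near that share: Dnajb1, a partner of Hsp70, by 1.06. Of 20 targets of NRF2, the oxidative stress factor, 2 fell: Pgd, of the pentose phosphate pathway and in the low stretch of chromosome 4, by 0.97 and Keap1, which holds NRF2 in check, by 0.70.

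**Figure D4:**
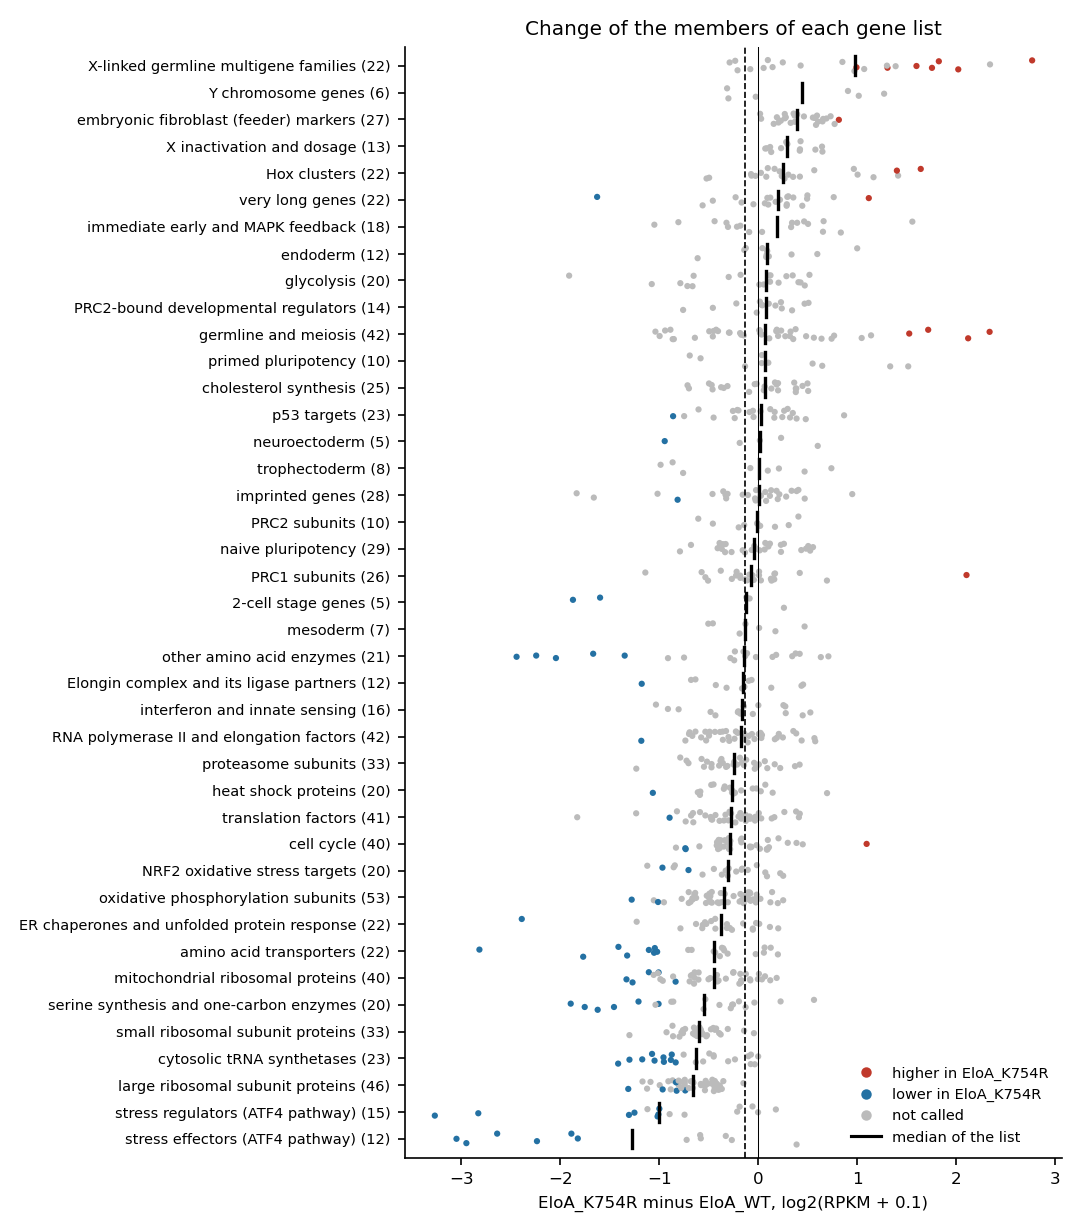
Change of each tested member of 41 gene lists, ordered by the list's median (black bar), with members called higher in red, called lower in blue and not called in grey. The number after each name counts the tested members, the dashed line is the median of all tested genes, and the stress effectors and regulators of the ATF4 pathway have the lowest medians and the X-linked germline families the highest.

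Ribosomal protein genes were low as a body, though few passed the test gene by gene. The 46 genes of the large subunit had a median change of −0.66, each was negative and 5 fell, and the 33 genes of the small subunit had a median of −0.59, each was negative and none fell, against −0.14 and 2.79% over all tested genes. Rpl23 stood at 18.7 and 20.3 RPKM in EloA_K754R and 38.6 and 37.7 RPKM in EloA_WT (−0.97, SE 0.14, adjusted p = 0.0387). Rpl27 fell by 1.31, Rpl22 by 0.83, Rpl11 by 0.82 and Rpl13a by 0.74. Rpl23 and Rpl27 lie on chromosome 11 and Rpl22 and Rpl11 in the low stretch of chromosome 4. With equal library medians the medians were −0.47 and −0.40, and none of these genes was called. With the length trend removed they were −0.35 and −0.29 (45 and 32 genes), and with quantile normalization −0.28 and −0.20, again without a call. Over all tested genes these scalings gave 0.055, 0.0033 and 0.022 in that order. Tested genes from 10 RPKM up had a median of −0.36, and those with 1 to 3 kb of intron −0.35. The ribosomal lists had median intron lengths of 1.1 and 1.2 kb, so the gap to such genes was smaller than that to −0.14. Introns of many ribosomal protein genes hold small nucleolar RNAs, and reads from them cannot be told apart here.

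Of 40 mitochondrial ribosomal proteins, 5 fell, against 2.79% of all tested genes, and the median was −0.45. It was −0.25 without chromosome 11, with 1 called, and −0.20 with each library centred by chromosome, with none called. Mrps7 fell by 1.33 to 1.15 and 0.901 RPKM in EloA_K754R, against 2.69 and 2.73 RPKM in EloA_WT, Mrpl10 by 1.27, Mrpl45 by 1.11 and Mrpl12 by 0.83, and these 4 lie on chromosome 11. Mrps15, in the low stretch of chromosome 4, fell by 1.01. Of 53 subunits of oxidative phosphorylation, 2 fell, Uqcrq of complex III by 1.28 and Atp5g1 of the ATP synthase by 1.01, both on chromosome 11, a share near that of all tested genes. Their median was −0.35, with −0.48 and −0.22 in replicates 1 and 2, and it was −0.16 with equal library medians and −0.075 with the length trend removed. Of 33 proteasome subunits none was called, with a median of −0.24 (−0.40 and −0.13 in replicates 1 and 2). None of 20 glycolysis genes was called, and their medians in replicates 1 and 2 had opposite signs, 0.40 and −0.33. The 25 cholesterol synthesis genes had none called with a median of 0.06.

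The change differed with the annotated intron length of a gene. Among genes with under 1 kb of intron, 2.70% were called lower and 0.697% higher, near the shares of all tested genes, with a median change of −0.33. Among genes with 1 to 3 kb, 4.25% were called lower and 0.380% higher, with a median change of −0.35. Among 1412 genes with over 100 kb, 0.850% were called lower and 2.2% higher, with a median of 0.12. Outside chromosome 11 the medians of these 3 classes were −0.29, −0.31 and 0.15. Of 22 very long genes, Nbea, a neuronal scaffold gene, rose to 0.482 and 0.497 RPKM in EloA_K754R, against 0.173 and 0.171 RPKM in EloA_WT (1.12, adjusted p = 0.0421), and Sgcz, of the sarcoglycan family, fell by 1.63 to 0.141 and 0.156 RPKM, against 0.688 and 0.646 RPKM in EloA_WT.

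Among genes of the transcription machinery, Polr2a, the catalytic subunit of RNA polymerase II, fell to 4.40 and 4.95 RPKM in EloA_K754R, against 10.1 and 11.4 RPKM in EloA_WT (−1.18, SE 0.16, adjusted p = 0.0351). It lies on chromosome 11, and its call was lost with equal library medians. The other 41 polymerase and elongation factor genes tested were not called. Polr2b, the second largest subunit, had 3.28 and 3.80 RPKM in EloA_K754R and 3.12 and 3.84 RPKM in EloA_WT, and overlapped.

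Of the 8 most abundant genes that fell, 6 lie on chromosome 11, Rpl23 and Rpl27 among them. Actg1, cytoplasmic gamma-actin, stood at 28 and 29 RPKM in EloA_K754R and 59.5 and 60.8 RPKM in EloA_WT (−1.07, adjusted p = 0.0394). Ppia, cyclophilin A, fell by 1.30, Eif4a1, a translation initiation helicase, by 0.90 and Hnrnph1, a splicing factor gene, by 0.76. Snhg3, a host gene of small nucleolar RNAs in the low stretch of chromosome 4, fell by 1.53, and Cd2bp2, a spliceosome protein gene on chromosome 7, by 0.76. Trp53 and Top2a, also on chromosome 11, fell by 0.86 and 0.74.

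Other strong falls were in genes of none of the lists above. Aspa, which cleaves N-acetylaspartate and lies on chromosome 11, stood at 0.427 and 0.726 RPKM in EloA_K754R and 6.12 and 5.66 RPKM in EloA_WT (−3.18, SE 0.24, adjusted p = 0.0127). P2rx3, an ATP-gated channel of sensory neurons, stood at 0.116 and 0.124 RPKM in EloA_K754R and 1.16 and 1.13 RPKM in EloA_WT (−2.50, adjusted p = 0.012). Pramel7 and Pramel6, members of a gene family active in the early embryo, fell by 1.87 and 1.60, with Pramel7 at 2.07 and 2.04 RPKM in EloA_K754R and 8 and 7.56 RPKM in EloA_WT. The other 3 genes of the 2-cell list were not called. Sh3bgrl3 and Iqcc, in the low stretch of chromosome 4, fell by 2.81 and 2.19, and Cby3, on chromosome 11, by 2.72. Sh3bgrl3 rests on 2 reads in EloA_K754R and 28 in EloA_WT.

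The largest rises were in genes that are normally expressed in germ cells, many of them X-linked. The X-linked germline families Magea, Xlr, Rhox and Pramel are kept silent in most somatic cells, and 22 of their 36 members in the table were tested. Of the 22, 7 rose and none fell, against 0.686% higher among all tested genes, and their median change was 0.98. The filter also used the EloA_K754R libraries, and Pramel3 and Xlr passed it only through them. The share and the median may therefore be raised by the filter. Pramel3 stood at 1.03 and 1.24 RPKM in EloA_K754R and 0.0779 and 0.0830 RPKM in EloA_WT (2.77, SE 0.29, adjusted p = 0.0234), on 290 reads against 19. Xlr rose by 2.02, Magea3 by 1.83, Magea10 by 1.76, Magea8 by 1.60, Magea5 by 1.31 and Nxf3, an RNA export gene of germ cells, by 0.99. Members of these families are near copies of each other, so the division of reads between them is uncertain. Chromosome X was higher as a whole, and with each library centred by chromosome the family median was 0.59 and 1 member was called.

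Of 42 other germline and meiosis genes, 4 rose, against 0.686% of all tested genes, none fell, and the median was 0.07. Asz1, a protein of the piRNA machinery, is on chromosome 6 and stood at 0.770 and 1.01 RPKM in EloA_K754R and 0.0938 and 0.0944 RPKM in EloA_WT (2.34, SE 0.30, adjusted p = 0.0325). Usp26, an X-linked deubiquitinase gene of the testis, stood at 2.91 and 2.30 RPKM in EloA_K754R and 0.641 and 0.415 RPKM in EloA_WT (2.12, adjusted p = 0.0247). Sohlh2, a transcription factor of early germ cells, rose by 1.72 and Slc25a31, a testis ADP/ATP carrier, by 1.53, both on chromosome 3. Asz1, Usp26 and Sohlh2 stayed called with each library centred by chromosome. Dazl and Ddx4, markers of germ cells proper, had changes of −1.0 and −0.43 and were not called. Nlrp4c, an oocyte gene, and Bmp15, an oocyte growth factor on chromosome X, rose by 1.56 and 1.57.

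**Figure D5:**
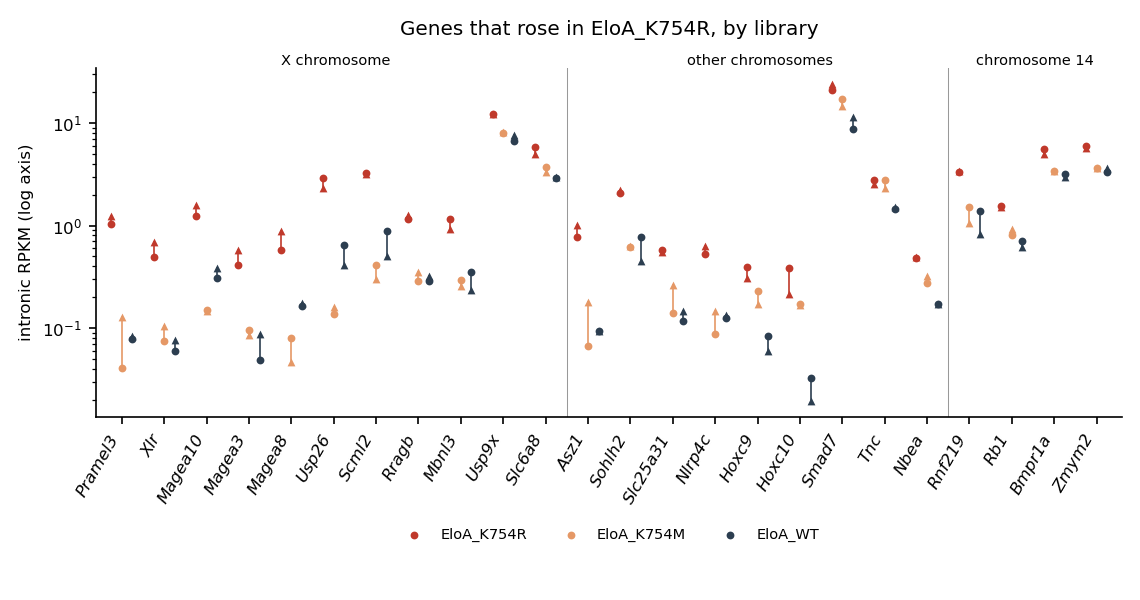
Intronic RPKM on a log axis of 24 genes that were called higher in EloA_K754R, with EloA_K754R left, EloA_K754M in the middle and EloA_WT right for each gene (circle replicate 1, triangle replicate 2). The genes were picked because they rose, so the gap between EloA_K754R and EloA_WT is part of the choice, while the EloA_K754M values were not used for it.

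Other X-linked genes rose with them. Scml2, a germline Polycomb protein gene, stood at 3.25 and 3.19 RPKM in EloA_K754R and 0.891 and 0.501 RPKM in EloA_WT (2.11, SE 0.27, adjusted p = 0.0319). It was the 1 gene of 26 on the PRC1 list to be called, near the 3.48% called among all tested genes. Rragb, a small GTPase of amino acid sensing, rose by 1.69 and Mbnl3, a splicing regulator gene, by 1.55. Usp9x, a broadly expressed deubiquitinase gene, had 12.3 and 12.3 RPKM in EloA_K754R and 6.67 and 7.66 RPKM in EloA_WT (0.77, adjusted p = 0.0421), and Slc6a8, the creatine transporter, rose by 0.86. Xist, the RNA that silences an X chromosome, had a change of 0.13 (adjusted p = 0.753) with overlapping groups, and none of 13 genes of X inactivation and dosage was called.

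On chromosome 14 the genes that rose included several that are widely expressed. Rb1, the retinoblastoma gene, stood at 1.55 and 1.51 RPKM in EloA_K754R and 0.707 and 0.620 RPKM in EloA_WT (1.1, SE 0.14, adjusted p = 0.0319). Rnf219 rose by 1.56, Adk, adenosine kinase, by 0.86, Bmpr1a, a BMP receptor gene, by 0.74, Zmym2 by 0.72, Mapk8, which encodes the kinase JNK1, by 0.71, and Nid2, a basement membrane protein gene, by 0.67. Trav4-3 and Trav8-1, segments of the T cell receptor alpha locus, were also called there, with changes of 2.45 and 2.19 that rest on 3 and 2 reads in EloA_K754R against 0 reads in EloA_WT.

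Smad7, an inhibitor of TGF-beta and BMP signals, rose to 21 and 24.2 RPKM in EloA_K754R, against 8.84 and 11.4 RPKM in EloA_WT (1.16, SE 0.18, adjusted p = 0.0406). Lefty1 and Lefty2, inhibitors of Nodal, had 3.91 and 1.13 and 6.79 and 2.95 RPKM in EloA_K754R, against 0.862 and 0.529 and 1.85 and 1.59 RPKM in EloA_WT. Their groups did not overlap, but the mutant libraries differed widely, and adjusted p were 0.173 and 0.105. Spry4, a feedback inhibitor of MAPK, had a change of 1.56 (adjusted p = 0.181), with 3.02 and 6.48 RPKM in EloA_K754R and 0.776 and 2.60 RPKM in EloA_WT, which did not overlap. None of 18 immediate early and MAPK feedback genes was called.

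Of 22 Hox genes tested, 2 rose, against 0.686% of all tested genes, Hoxc10 by 1.64 and Hoxc9 by 1.40, and they lie in 1 cluster on chromosome 15. Hoxc9 stood at 0.396 and 0.310 RPKM in EloA_K754R and 0.0831 and 0.0591 RPKM in EloA_WT, on 82 reads against 16. Hoxc10 rests on 35 reads against 3. Hoxc8 and Hoxc11 had changes of 1.0 and 1.17 without a call. With each library centred by chromosome neither passed the threshold, while the changes of Hoxc9 and Hoxc10 were 1.57 and 1.81 and the median of the 22 was 0.55, against 0.25 before. Embryonic fibroblasts can express Hox genes as well, and the summed fibroblast markers were higher in EloA_K754R, as given above, and their part in this rise was not tested. Of 27 fibroblast genes each had a positive change, with a median of 0.39, though that of Twist1 (0.02) rests on a 0 in 1 EloA_WT library. Tnc, a matrix glycoprotein gene, rose to 2.80 and 2.56 RPKM in EloA_K754R, against 1.46 and 1.5 RPKM in EloA_WT (0.82, adjusted p = 0.0438). Col18a1, a basement membrane collagen gene, rose by 1.51. EloA_K754M shared these shifts against the same EloA_WT libraries, with medians of 0.37 for the 22 Hox genes and 0.41 for the 27 fibroblast genes. In pooled CJ7_WT the medians against EloA_WT were 0.13 and 0.38, where all tested genes had −0.20. No gene of either list was called between the 2 mutants, near the 0.29% called among all tested genes.

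PRC2 genes did not pass the test. Eed had 10.3 and 12.7 RPKM in EloA_K754R and 10.6 and 14.9 RPKM in EloA_WT, Ezh2 had 5.55 and 4.94 RPKM against 5.40 and 5.15 RPKM, and Suz12 had 11.7 and 12.3 RPKM against 12.4 and 15.3 RPKM. The first 2 overlapped between groups, and none of 10 PRC2 genes was called. Of 59 regulators of development that PRC2 binds in stem cells, 55 were in the table and only 14 passed the level filter. None of these 14 was called, near the 3.48% called among all tested genes, and their median was 0.07. The others were not tested. Naive pluripotency genes had none called of 29, with a median of −0.04. Klf4 stood at 7.53 and 6.50 RPKM in EloA_K754R and 5.69 and 4.66 RPKM in EloA_WT, and its change of 0.44 had an adjusted p of 0.277. Genes of primed pluripotency, mesoderm, endoderm and trophectoderm had none called of 10, 7, 12 and 8 tested, from lists of 20, 14, 19 and 16. Tubb3, a neuronal tubulin gene, fell by 0.94 among 5 neuroectoderm genes.

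EloA_K754R was also compared with EloA_K754M, in which the lysine is methionine and the labelled line is the same. Limma called 44 of 15161 genes (0.29%), 27 higher in EloA_K754R (0.178%) and 17 lower (0.112%), and 25 of the 44 are unnamed gene models. The balance turned without EloA_K754M replicate 1 (9 higher, 53 lower), without EloA_K754M replicate 2 (1 and 10), without a filter (1 and 8) and with at least 20 reads (96 and 106). Of the 27 higher, 11 are on chromosome X and 3 on chromosome Y. Usp26 stood at 2.91 and 2.30 RPKM in EloA_K754R and 0.138 and 0.160 RPKM in EloA_K754M, a difference of 3.43 (adjusted p = 0.011). Scml2 and Pramel3 differed by 2.87 and 2.77. The Y-linked Ube1y1, a ubiquitin-activating enzyme, had 0.999 and 1.07 RPKM in EloA_K754R, 0.0189 and 0.0461 RPKM in EloA_K754M and 0.334 and 0.624 RPKM in EloA_WT. Relative to all genes, the median of the 6 tested Y-linked genes was 0.51 and 0.65 in EloA_K754R, and −2.02 and −1.76 in EloA_K754M. Chromosome 14, chromosome X and the low stretch of chromosome 4 differed between the mutants as well, with medians of R minus M, relative to all genes, of 0.38 and 0.33 for the first 2 and a median of −0.52, not set against all genes, for the last.

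Lower in EloA_K754R than in EloA_K754M were Masp2, a complement protease gene in the low stretch of chromosome 4, Rab19 and 1 of the 2 entries that carry the symbol Tob2 (ENSMUSG00000078960). Masp2 stood at 1.45 and 1.49 RPKM in EloA_K754R, 3.68 and 3.08 RPKM in EloA_K754M and 3.91 and 3.74 RPKM in EloA_WT. Rab19 had 0.242 and 0.253 RPKM in EloA_K754R and 0.911 and 1.01 RPKM in EloA_K754M. This Tob2 entry had no intronic read in either EloA_K754R library and 1 read in each EloA_K754M library, while the other entry was not called. Rassf10, called higher, had 5 reads in EloA_K754R and none in EloA_K754M, so neither call rests on more than a handful of reads. Tceb2 had 1.49 and 1.69 RPKM in EloA_K754R and 3.88 and 2.82 RPKM in EloA_K754M, and this difference was not called (adjusted p = 0.106).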

How the data were processed

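The authors deposited 1 table of intronic RPKM per gene, and BWA and the build mm9 are named in the submitters' processing notes. No source used here gives the counter, annotation, strand handling or depth. RPKM are whole multiples of 1 read (within 0.01, up to 0.06). Reads and intron length were thus recovered for 99.97% of genes with 6 or more values above 0. The summed reads exceeded the recovered depth in each library, so the scale is uncertain. The length used was about 2 times the annotated intron length for 35.0% of genes, and overlapping or antisense genes may share reads. Gene order comes from GENCODE M21, as do the chromosomes of the 22887 IDs matched to it. Further IDs took a chromosome from RefSeq by Ensembl ID or symbol, so that 23980 had one. The model on log2(RPKM + 0.1) took 3 groups of 2 libraries in 1 limma fit (version 3.58.1, R 4.3.3; eBayes with a mean trend), with two-sided tests and Benjamini-Hochberg adjustment over 15161 genes. The recovery of reads and the limma fit were tested on simulated data, and the motif search on a planted site. The members and the 41 lists were chosen with earlier results of these data known.

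Named genes were the 15 largest rises and 15 largest falls with groups apart, at least 0.5 RPKM and 20 reads in the higher group, the 8 most abundant called genes each way, up to 4 called members per list (up to 2 where none was called), 9 genes of Elongin, PRC2 and pluripotency, and the 5 largest each way between the mutants and on chromosomes 11, 14 and X. Unnamed gene models were passed over, and 1 gene is not reported here. Other genes in the text, such as further list members, Atf4, Asns and the kinase genes, and the genes beside the split on chromosome 4, were chosen after their values were seen. Replicate numbers were not used to pair libraries, since 2 pairs and the labels do not show that they mark a shared day. Alternatives covered the pseudocount, the filter, scaling, the libraries fitted and the variance model, and the centring by chromosome, the centring within 10 groups of genes along each chromosome and the read minimum were added after seeing the data.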

Additional observations from a re-analysis of the deposited data

Results flagged for a closer look

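Some genes differed between the 2 substitutions by the direct test of EloA_K754R minus EloA_K754M (limma, adjusted p under 0.05). Usp26 (3.43), Ube1y1 (3.10), Rassf10 (2.98), Scml2 (2.87) and Pramel3 (2.77) were higher in EloA_K754R on the log2 scale, and 1 of 2 Tob2 entries (−2.14), Rab19 (−1.61) and Masp2 (−1.15) were lower. Usp26, Scml2 and Pramel3 are X-linked and Ube1y1 Y-linked. The values of Rassf10 and Tob2 depend on the added 0.1 RPKM, since 1 group has no read, and are no bound.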

How the results depend on the processing

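Against EloA_WT, 527 genes became 1777 with the replicate block, 1271 with voom on recovered reads, 1148 with at least 20 reads, 333 with quantile normalization, 324 with equal library medians, 274 with the length trend removed, 228 without a variance trend, 205 without chromosome 11, 98 with centring by chromosome, 63 with centring within 10 groups along each chromosome, and 1 in the 4 libraries alone. Without a filter limma called 0 of 24901 genes, with 3856 at an unadjusted p under 0.05. Leaving out 1 library gave 1 to 9. Quantile normalization called 169 higher and 164 lower. Against EloA_K754M, 44 became 441 with voom, 355 with the replicate block, 202 with at least 20 reads, 90 with the length trend removed and 90 with quantile normalization, 74 without chromosome 11, 68 with equal medians, 27 with a pseudocount of 1, 22 with centring within 10 groups, 12 at a mean of at least 0.5 RPKM, 9 without a filter, and 5 to 62 without 1 library. The cause was not tested. The replicate block called 395 higher and 1382 lower against EloA_WT, 154 higher and 201 lower against EloA_K754M, and 52 lower and 2 higher among the 113 amino acid and stress genes. Deviations of same-numbered libraries correlated at 0.197 (EloA_K754R with EloA_WT), 0.152 (EloA_K754R with EloA_K754M) and 0.166 (EloA_K754M with EloA_WT). With 2 numbers and no label that says what they mark, whether they pair the libraries is not settled.

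The median change of −0.14 became 0.053 with centring by chromosome, 0.034 with centring within 10 groups, 0.055 with equal medians, 0.022 with quantile normalization, 0.0033 with the length trend removed, −0.011 without a filter and −0.064 with a pseudocount of 1. No called gene named in the text reversed. Of those not called, Tceb1 turned to 0.097 (equal medians), 0.12 (length) and 0.066 (quantile) and lay between −0.30 and 0.11 without 1 library. Eed turned to 0.14 (chromosome), 0.051 (equal medians), 0.012 (length) and 0.11 (quantile) and lay between −0.39 and 0.10 without 1 library. Ezh2 turned to 0.17 (chromosome), 0.18 (10 groups), 0.18 (equal medians) and 0.16 (quantile) and lay between −0.091 and 0.073 without 1 library. Suz12 turned to 0.43 (chromosome), 0.28 (10 groups) and 0.051 (quantile), Ezh1 to 0.17 (chromosome) and 0.051 (10 groups), Sparc to 0.018 (chromosome) and 0.016 (10 groups), and Pou5f1 to 0.016 (10 groups) and 0.013 (quantile). With 10 groups, Rbbp4 turned to 0.11 and Tceb3 to 0.015. Nanog turned to −0.013 without EloA_WT replicate 1.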

Other observations

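Pooled CJ7_WT, the labelled parental line of the mutants, stood between the mutant and EloA_WT for several genes named above. Nupr1 had 0.700 RPKM, Trib3 1.89, Pck2 1.57 and Aspa 1.62 RPKM in pooled CJ7_WT. Usp26 had 2.41 RPKM there and Smad7 21.1 RPKM, close to the EloA_K754R libraries, while Pramel3 had 0.147 and Asz1 0.198 RPKM, close to those of EloA_WT. Most ribosomal protein genes were lower in pooled CJ7_WT than in EloA_K754R. The median of EloA_K754R minus pooled CJ7_WT was 0.88 for the large and 0.66 for the small subunit, against 0.08 over all tested genes. These are single pooled values with no replicate spread.

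Of 28 imprinted genes, 1 was called, near the 2.79% lower among all tested genes: Mest, expressed from the paternal copy, fell by 0.81. With equal library medians or quantile normalization no imprinted gene was called. H19, a maternally expressed RNA, had 1.25 and 0.561 RPKM in EloA_K754R and 3.58 and 2.99 RPKM in EloA_WT (adjusted p = 0.06), and Grb10, on chromosome 11, had 1.45 and 1.00 RPKM in EloA_K754R and 4.6 and 3.52 RPKM in EloA_WT (adjusted p = 0.0524). Of 16 interferon genes none was called, with a median of −0.16.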
